A study of Mus musculus with 2 samples.

Results

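The genes of major histocompatibility complex class II (MHC-II) antigen presentation were examined for DNA break ends in mouse B cells. The 10 genes were taken from a fixed list of symbols, namely H2-Ab1, H2-Aa, H2-Eb1, H2-DMa, H2-DMb1, H2-DMb2, H2-Oa, H2-Ob, Cd74 and Ciita, out of 49943 genes in the RefSeq table. Each gene was counted from 2 kb before to 2 kb after its mm10 coordinates, and all 10 held at least 50 reads in both libraries together. The measurement was END-seq, in which adapters are ligated to broken DNA ends: a read begins at the end, and its strand marks the side on which the DNA continues. One library came from CD43-negative splenic B cells in S phase, activated with IL-4 (25 ng/mL) plus anti-CD40 (1 µg/mL) over 24 to 28 h, and the other from quiescent CD43-negative splenic B cells in G1 phase that received neither agent. The mice were 4 to 8 weeks old, both titles carry the prefix ATR+c, which the labels do not explain, and neither strain nor the number of mice is given in the sources used here.

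MHC-II molecules are pairs of an alpha and a beta chain that carry peptides to the surface of B cells, dendritic cells and macrophages, where CD4+ T cells read them. The invariant chain Cd74 occupies the groove of new molecules, DM exchanges its remnant for peptides, DO restrains DM, and Ciita is the coactivator without which the class II promoters are largely silent. IL-4 is known to raise class II on resting mouse B cells. END-seq counts DNA ends and not RNA, so none of the values below is an expression level, and the identity of the cells could not be checked from markers.

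The S-phase library held 20543572 reads on chromosomes 1 to 19 and the G1 library 26889564, and these totals were used for scaling. Reads came in stacks, with 2.84 reads per covered strand-specific position in S phase and 3.84 in G1 phase, so reads of a position may be copies of 1 molecule. All intervals are 95% intervals for counting error alone and are too narrow where reads are stacked, which is why the number of covered positions is given beside reads. With 1 library a group, no difference has a replicate check and no test was made. Phase, activation and library differ together and cannot be told apart. Over the 46836 genes with at least 50 reads, the median ratio of S phase over G1 phase was 1.08. T cell marker genes, counted as DNA, had a median log2 ratio of -0.24 (1 of 5 at 1.5 or above, 2 at its inverse or below, where 15% and 8.89% of all genes lie). The medians were 0.18 for 6 B cell markers (1 above, 0 below), 0.17 for 6 myeloid and dendritic markers and 0.29 for 3 erythroid markers (0 either way in both).

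Promoters of class II genes share an upstream module with an X box, bound by the RFX complex, and a Y box, bound by NF-Y. The promoter sequences of H2-Eb1, H2-Aa, H2-DMb1, H2-Oa and H2-Ob are shown because the S-phase bin with the most reads in each of these genes lay at the start, with a ratio of the libraries that was above 1 at the start of H2-Eb1 and below 1 at those of H2-DMb1, H2-Oa and H2-Ob. Each runs 5′ to 3′ on the gene's strand from 250 bases before to 50 bases after the start, from RefSeq (GRCm38.p6, the assembly of mm10). They lie at chr17:34305617-34305916 (plus strand), chr17:34287774-34288073 (minus strand), chr17:34152941-34153240 (plus strand), chr17:34092129-34092428 (plus strand) and chr17:34238655-34238954 (plus strand). Capitals mark CCAAT, the Y box core, on either strand (ATTGG on the other strand), and an X box core of 11 letters on either strand (AG, 2 bases of any kind, AC, 1 base of any kind and GATG).
H2-Eb1: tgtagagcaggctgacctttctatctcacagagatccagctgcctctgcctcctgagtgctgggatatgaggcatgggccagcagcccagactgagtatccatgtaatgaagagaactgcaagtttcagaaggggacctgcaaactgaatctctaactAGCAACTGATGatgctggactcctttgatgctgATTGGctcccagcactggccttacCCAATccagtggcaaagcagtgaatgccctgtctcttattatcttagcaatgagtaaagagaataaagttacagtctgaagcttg
H2-Aa: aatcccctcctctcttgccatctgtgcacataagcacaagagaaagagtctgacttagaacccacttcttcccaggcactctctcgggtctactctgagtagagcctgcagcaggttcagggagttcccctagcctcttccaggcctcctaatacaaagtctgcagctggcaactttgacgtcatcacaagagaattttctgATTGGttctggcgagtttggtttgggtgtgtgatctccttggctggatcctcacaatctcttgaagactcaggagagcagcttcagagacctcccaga
H2-DMb1: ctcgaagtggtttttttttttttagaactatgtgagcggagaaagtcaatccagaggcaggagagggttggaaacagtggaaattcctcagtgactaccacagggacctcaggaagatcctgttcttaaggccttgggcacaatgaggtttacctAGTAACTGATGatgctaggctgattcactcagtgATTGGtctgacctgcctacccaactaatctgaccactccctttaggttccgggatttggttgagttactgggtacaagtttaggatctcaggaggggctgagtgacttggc
H2-Oa: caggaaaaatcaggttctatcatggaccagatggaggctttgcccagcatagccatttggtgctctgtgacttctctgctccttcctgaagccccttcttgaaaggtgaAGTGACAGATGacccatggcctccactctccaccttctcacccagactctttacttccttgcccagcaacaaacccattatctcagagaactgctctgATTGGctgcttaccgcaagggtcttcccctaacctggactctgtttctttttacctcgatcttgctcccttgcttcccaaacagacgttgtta
H2-Ob: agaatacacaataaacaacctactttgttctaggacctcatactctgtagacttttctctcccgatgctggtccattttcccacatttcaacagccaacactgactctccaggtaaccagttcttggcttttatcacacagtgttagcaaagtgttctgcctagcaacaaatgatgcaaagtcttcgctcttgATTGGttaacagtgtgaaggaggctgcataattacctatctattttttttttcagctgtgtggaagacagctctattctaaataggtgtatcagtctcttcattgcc

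The promoter table held 8 starts for 7 of the 10 genes. H2-Ab1, Cd74 and Ciita had no entry. CCAAT was found at 7 of the 8 starts, where 37.4% of 32851 promoters of this length hold it. The X box core was found at 3 of them, in H2-Eb1, H2-DMb1 and H2-Oa, against 0.968% of all promoters. In H2-Eb1 the X box core begins 92 bases before the start and a CCAAT core 59 bases before it, and in H2-DMb1 they begin 95 and 61 bases before it. In H2-Oa they lie farther apart, beginning 141 and 43 bases before the start. A match is a match of letters and shows no binding. The fixed pattern can miss an X box with other letters and can match outside one. The match in H2-Oa may therefore not be its X box, and a start without a match may still hold one.

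The 3 genes of the classical class II chains carried about 2 times as many break ends in S phase as in G1 phase, relative to library size. They are H2-Ab1 and H2-Aa, which encode the beta and alpha chains of I-A, and H2-Eb1, which encodes the beta chain of I-E. H2-Ab1 (chromosome 17, 34263227 to 34269418) held 150 S-phase reads and 99 G1-phase reads (ratio 1.98, 1.53 to 2.58). H2-Aa (34282744 to 34287823) held 134 S-phase reads and 93 G1-phase reads (ratio 1.89, 1.44 to 2.48). H2-Eb1 (34305867 to 34316674) held 203 S-phase reads and 131 G1-phase reads (ratio 2.03, 1.62 to 2.55). By reads, each of these intervals lies above the ratio of 1.15 to 1.16 found over 1 Mb on each side of these genes. Together the 3 genes held 487 and 323 reads, a ratio of 1.97 (1.71 to 2.28).

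The difference was present in positions as well as in reads. H2-Ab1 had 60 S-phase positions and 29 G1-phase positions, a ratio of 1.97 (1.24 to 3.18). By positions 3 of the 10 genes reached a ratio of 1.5, against 13.9% of all genes (6.73% were at its inverse or below), and 3 had an interval above 1, against 9.74%. H2-Aa had 41 and 22, a ratio of 1.77 (1.03 to 3.12), and H2-Eb1 had 69 and 35, a ratio of 1.87 (1.23 to 2.90). By positions, 1 Mb on each side of the class II span stood at 1.11 and the median gene at 1.10. The interval of H2-Aa holds both values, and those of H2-Ab1 and H2-Eb1 lie above them. The highest stack held 9 and 12 reads in H2-Ab1, 7 and 8 in H2-Aa, and 11 and 8 in H2-Eb1 (S phase and G1 phase), so no single position made up more than 12.1% of a library's reads in these genes. Few positions recurred: the libraries shared 2 positions in H2-Ab1, 0 in H2-Aa and 2 in H2-Eb1.

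Of the 10 genes, 3 reached a ratio of 1.5 and 0 its inverse, against 15% and 8.89% of all genes with at least 50 reads. Among protein-coding genes the shares were 12.1% and 4.36%, and among genes with at least 200 reads 8.85% and 1.88%. The counting interval lay above 1 for 6 of the 10 and below 1 for 0, against 28.8% and 13.5% of all genes. An interval excludes 1 more easily in a deeper gene, and these shares include genes with as few as 50 reads. H2-DMa is among the 6 only with the reads that it shares with Brd2, given below. The ratio was above 1 for 7, against 60.4% of all genes. The median log2 ratio of the 10 was 0.32, against 0.10 for all genes and 0.14 for protein-coding genes. A ratio at or above that of H2-Eb1 was found in 4.3% of all genes and in 0.34% of the 17050 genes with at least as many reads. For H2-Ab1 these shares were 4.8% and 0.804%, and for H2-Aa 5.9% and 1.54%. The genes with at least as many reads include much deeper ones, whose ratios carry less counting error. By positions, 4.94% of all genes were at or above H2-Eb1, 3.8% at or above H2-Ab1 and 6.23% at or above H2-Aa.

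**Figure D1:**
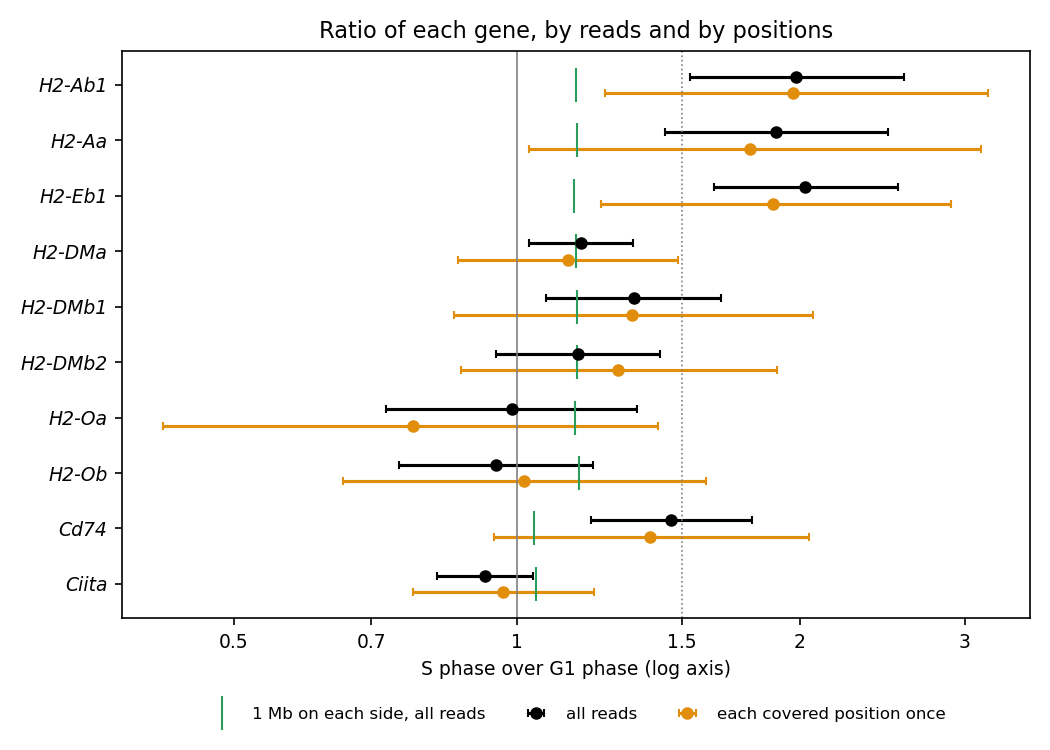
Ratio of S phase over G1 phase for each gene with 2 kb flanks (horizontal log axis, 1 library per group), from all reads (black) and from each covered position counted once (orange), with 95% counting intervals. Green ticks give the ratio over 1 Mb on each side, and the dotted line marks 1.5. H2-Ab1, H2-Aa and H2-Eb1 lie at 1.98, 1.89 and 2.03 by reads, and Ciita, H2-Oa and H2-Ob lie near 1.

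The higher S-phase counts were found inside the genes as well as in their flanks. Between gene start and end, H2-Ab1 held 75 and 49 reads (2.00, 1.38 to 2.93), H2-Aa 71 and 41 (2.27, 1.52 to 3.42) and H2-Eb1 140 and 93 (1.97, 1.51 to 2.59), in S phase and G1 phase. The flanks gave 1.96, 1.59 and 2.17. The DNA between the genes was closer to its surroundings. The 9.33 kb between the counted intervals of H2-Ab1 and H2-Aa held 71 and 90 reads, a ratio of 1.03 (0.746 to 1.43). The 14.0 kb between H2-Aa and H2-Eb1 held 192 and 228 reads, a ratio of 1.10 (0.905 to 1.34). To the right of H2-Eb1 the ratio was 1.58 (1.12 to 2.25) up to H2-Eb2, from 75 and 62 reads.

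More bins of the classical genes were covered in S phase. Over all genes 71.7% of 500 bp bins were covered in S phase, against 67.5% in G1 phase, although the S-phase library is the smaller. Of 19 bins of 500 bp in H2-Aa, 16 were covered in S phase, against 9 in G1 phase. H2-Eb1 was covered in 26 of 30 bins in S phase, against 19 in G1 phase, and H2-Ab1 in 20 of 21, against 17. H2-Ob, with fewer scaled reads in S phase, was also covered in 20 bins, against 17 in G1 phase. The bin with the most reads lay beside the gene start in H2-Aa, with 29 S-phase and 25 G1-phase reads (1.52, 0.858 to 2.70). In H2-Ab1 it was the bin that ends at the left end of the gene, with 27 S-phase and 22 G1-phase reads (1.61, 0.881 to 2.96). In H2-Eb1 the bin before the start led in S phase, with 27 S-phase and 15 G1-phase reads (2.36, 1.21 to 4.76), whereas in G1 phase the leading bin lay in the gene, 1000 to 1499 bp from its left end, with 2 and 17 reads.

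On strands, the classical genes differed among themselves. H2-Ab1 was higher in S phase on both, with 86 and 60 plus-strand reads (1.88, 1.33 to 2.65) and 64 and 39 minus-strand reads (2.15, 1.42 to 3.29). H2-Aa was likewise higher on both, at 1.66 (1.08 to 2.56) on the plus strand and 2.06 (1.44 to 2.98) on the minus strand. H2-Eb1 had 130 S-phase and 51 G1-phase reads on the plus strand (3.34, 2.40 to 4.71), but 73 and 80 on the minus strand (1.19, 0.858 to 1.66). Its plus-strand share was 64.0% (57.0 to 70.6) in S phase, against 38.9% (30.5 to 47.8) in G1 phase, a difference of 25.1 percentage points. A difference of 20 points or more in either direction was found in 10.6% of the 31109 genes with at least 50 reads in each library.

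The genes of the peptide exchange factor DM had ratios of 1.33 or less. H2-DMb1 (34153191 to 34160229), 1 of a pair of genes for the DM beta chain, held 177 S-phase reads and 174 G1-phase reads (ratio 1.33, 1.07 to 1.65), with 53 and 38 positions (1.33, 0.858 to 2.07). Its neighbour H2-DMb2 (34143229 to 34151553) held 190 and 214 reads, a ratio of 1.16 (0.951 to 1.42). Both intervals hold the ratio of 1.16 of their surroundings. The pair is closely related in sequence, reads that fit both may have been assigned to either, and 2.36 kb of their flanks, with 61 and 77 reads, were counted for both. A single bin in this overlap, which spans the start of H2-DMb1, was the highest of both genes, with 39 S-phase and 68 G1-phase reads (0.751, 0.493 to 1.13). Without that bin H2-DMb1 stood at 1.70 (1.31 to 2.22), past 1.5, and H2-DMb2 at 1.35 (1.07 to 1.71), below it.

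H2-DMa, for the DM alpha chain (34119693 to 34139101), held 467 S-phase reads and 522 G1-phase reads (ratio 1.17, 1.03 to 1.33). The RefSeq interval of this gene overlaps Brd2, a gene for a bromodomain protein of chromatin (34112019 to 34122814). Most reads of H2-DMa lay in this stretch: within 2 kb of Brd2 there were 344 and 341 reads, a ratio of 1.32 (1.13 to 1.54). One bin there, at 34119193 to 34119692 inside Brd2, held 233 and 178 reads on 35 and 23 positions, or 49.9% and 34.1% of the reads counted for H2-DMa. The rest of the H2-DMa interval held 123 and 181 reads, a ratio of 0.889 (0.702 to 1.12), so its value above 1 rests on the overlap with Brd2.

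The genes of DO, which modulates DM in B cells, gave ratios near 1 by reads. H2-Oa (alpha chain, 34092379 to 34095234) held 77 S-phase reads and 102 G1-phase reads (ratio 0.988, 0.725 to 1.34). H2-Ob (beta chain, 34238905 to 34245908) held 125 and 172 reads, a ratio of 0.951 (0.749 to 1.20), below the 1.16 of its surroundings, which its interval holds. Together they stood at 0.965 (0.801 to 1.16). By positions H2-Oa had 22 and 27, a ratio of 0.775 (0.420 to 1.41), and H2-Ob 45 and 42, a ratio of 1.02 (0.654 to 1.59). Within the short H2-Oa gene itself there were 6 S-phase and 25 G1-phase reads (0.314, 0.105 to 0.784), whereas its flanks, which overlap the noncoding gene BC051537, had 71 and 77 reads. No 500 bp bin inside H2-Oa held more than 1 S-phase position or 2 G1-phase positions. The interval by reads is therefore too narrow, and one by positions was not computed for the gene without flanks. The bin with the most reads ended at the left end of each gene, at 24 and 34 for H2-Oa (0.924, 0.524 to 1.60) and 29 and 45 for H2-Ob (0.844, 0.510 to 1.38). The strands of DO ran opposite ways, at 1.34 (1.04 to 1.73) on the plus strand and 0.654 (0.489 to 0.869) on the minus strand. In the DM genes together it was the minus strand that was higher, at 1.39 (1.21 to 1.60), against 1.06 (0.918 to 1.22) on the plus strand. The plus-strand share in S phase and G1 phase was 62.9% and 45.3% in DO and 46.1% and 52.8% in DM. Over genes with at least 50 reads in each library, the median difference of this share was 6.73 points in either direction. In 34.4% of them it was 10 points or more. Positions were not counted by strand.

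Cd74 (chromosome 18, 60803849 to 60812652), the invariant chain, held 221 S-phase reads and 198 G1-phase reads (ratio 1.46, 1.20 to 1.78), just under 1.5 and above the 1.04 of its surroundings. By positions it had 70 and 48, a ratio of 1.39 (0.947 to 2.05). It was higher in S phase on the plus strand, with 145 and 88 reads (2.16, 1.64 to 2.84), while the minus strand had 76 and 110 (0.904, 0.666 to 1.22). The plus-strand share was 65.6% (58.9 to 71.9) in S phase, against 44.4% (37.4 to 51.7) in G1 phase. The highest bin of Cd74, which ends at its left end, stood at 38 S-phase and 54 G1-phase reads (0.921, 0.592 to 1.42). Bins higher in S phase lay inside the gene and at its right end, where the flank reaches into Tcof1, a gene for a nucleolar protein. The bin 2000 to 2499 bp from the left end held 29 S-phase reads on 9 positions and 3 G1-phase reads on 2 positions, a ratio of 12.7 (3.92 to 64.9). Another, at the right end of the gene, held 26 and 5 reads (6.81, 2.57 to 22.7). The bin 1000 to 1499 bp from the left end held 20 and 9 reads (2.91, 1.27 to 7.25), and a bin of the right flank, inside Tcof1, held 23 and 8 (3.76, 1.62 to 9.73). Some bins inside the gene were lower in S phase, with intervals below 1, but held fewer than 20 reads in each library and were not called. Between its start and end Cd74 held 140 and 110 reads, a ratio of 1.67 (1.29 to 2.16), past 1.5. Over the counted interval left of Tcof1 the ratio was 1.35 (1.10 to 1.66).

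Ciita (chromosome 16, 10480014 to 10531064), the longest of the 10, held 491 S-phase reads and 694 G1-phase reads (ratio 0.926, 0.823 to 1.04). Its surroundings stood at 1.05 (1.03 to 1.07), an interval that overlaps that of Ciita. By positions Ciita had 168 and 165, a ratio of 0.968 (0.776 to 1.21), whose interval holds 1.05. The bin with the most reads in both libraries lay 12000 to 12499 bp from the left end, with 31 S-phase reads on 4 positions and 83 G1-phase reads on 8 positions, a ratio of 0.489 (0.313 to 0.747). Its reads were almost all on the minus strand, 31 of 31 S-phase reads and 74 of 83 G1-phase reads. Without it the ratio of Ciita was 0.985 (0.871 to 1.11), whose interval also holds 1.05. The neighbouring bin 11000 to 11499 bp from the left end went the other way, at 23 and 13 reads (2.32, 1.12 to 4.98). Of the bins with at least 20 reads in either library, the others with a ratio of 0.5 or below lay 11500 to 11999, 16500 to 16999 and 38000 to 38499 bp from the left end, with 6 and 21, 5 and 20, and 6 and 23 reads.

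**Figure D2:**
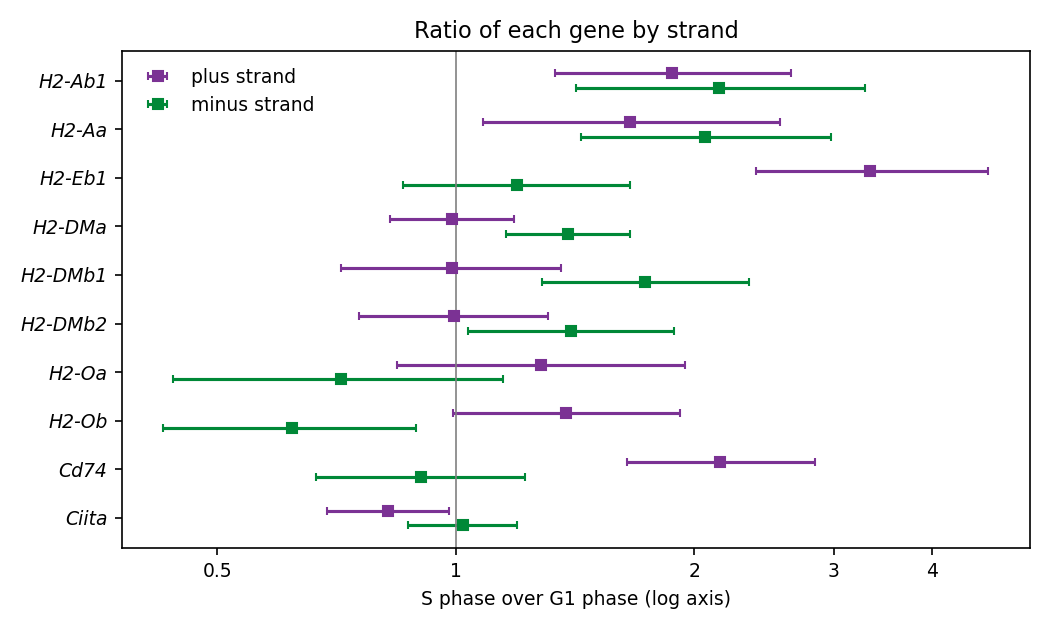
Ratio of S phase over G1 phase by strand for each gene with 2 kb flanks (horizontal log axis, 95% counting intervals, 1 library per group). H2-Eb1 and Cd74 are higher in S phase on the plus strand, at 3.34 and 2.16, while H2-Ab1 and H2-Aa are higher on both strands.

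Over the 10 genes 28 of 334 bins of 500 bp had 20 reads or more in either library. Of these 7 had a ratio of 2 or above and 6 a ratio of 0.5 or below, against 16.7% and 59.9% of the 72677 such bins of all genes. The minimum of 20 reads is not scaled to depth and is met more easily in the larger G1 library. Of the 7 higher bins 4 were in Cd74 and 1 each in H2-Eb1, H2-DMb2 and Ciita, and of the 6 lower bins 4 were in Ciita and 1 each in H2-DMa and H2-Ob. The higher bin of H2-DMb2 lay at the left end of the gene, with 23 and 11 reads. The lower bin of H2-Ob lay in its right flank with 7 and 27 reads, and that of H2-DMa in the overlap with Brd2 with 11 and 29. All of these bins rest on at most 9 positions in a library. With each position counted once, 1 bin passed the minimum and 0 were called either way.

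Per length, the classical genes had fewer break ends than the other 7 in G1 phase and ranked in the middle in S phase. On the scale of RPKM (reads per kb per 1000000 reads on chromosomes 1 to 19), H2-Aa stood at 0.718 RPKM in S phase and 0.381 RPKM in G1 phase, H2-Ab1 at 0.716 and 0.361, and H2-Eb1 at 0.667 and 0.329. The median gene stood at 0.380 RPKM in S phase and 0.358 in G1 phase, so the classical genes were near it in G1 phase. H2-DMa led in both libraries, at 0.971 and 0.829, with the share from Brd2 included. In G1 phase its interval lay above that of the next gene, H2-DMb2 at 0.646, and every later neighbour in the order overlapped. After H2-DMb2 came H2-DMb1 (0.586), H2-Ob (0.581), Cd74 (0.575), H2-Oa (0.553), Ciita (0.469), H2-Aa, H2-Ab1 and H2-Eb1. In S phase the order was H2-DMa, Cd74 (0.840), H2-DMb1 (0.780), H2-DMb2, H2-Aa, H2-Ab1, H2-Eb1, H2-Ob (0.553), H2-Oa (0.547) and Ciita (0.434), and all neighbours overlapped in their intervals.

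**Figure D3:**
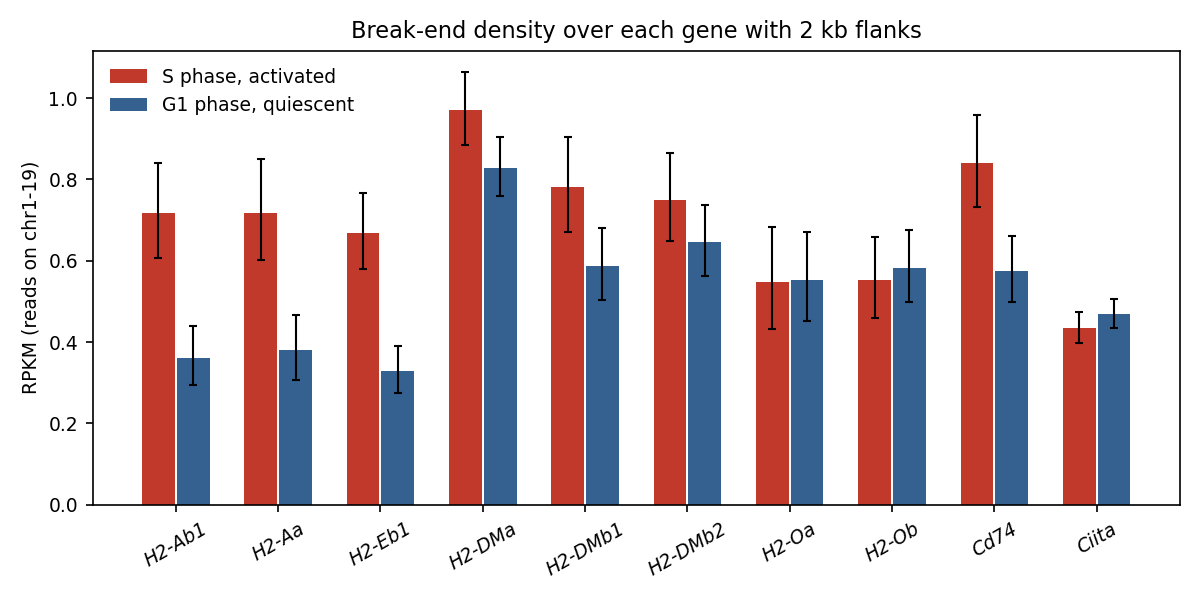
RPKM on the total of chromosomes 1 to 19 over each gene with 2 kb flanks, in the S-phase library (red) and the G1 library (blue), with 95% counting intervals. H2-Ab1, H2-Aa and H2-Eb1 lie between 0.667 and 0.718 in S phase, above 0.329 to 0.381 in G1 phase.

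Among the 8 member starts in the promoter table, which lacks H2-Ab1, Cd74 and Ciita, that of H2-Eb1 had the highest ratio. Within 500 bp of it there were 44 S-phase reads on 15 positions and 19 G1-phase reads on 6 positions, a ratio of 3.03 (1.73 to 5.50). The start of H2-Aa held 35 reads in both libraries, a ratio of 1.31 (0.796 to 2.15), and its interval overlaps that of H2-Eb1. The start of H2-DMb1 held 43 and 74 reads (0.761, 0.510 to 1.12), that of H2-Ob 34 and 57 (0.781, 0.495 to 1.21) and that of H2-Oa 24 and 40 (0.785, 0.453 to 1.33). H2-DMb2 held 44 and 51 (1.13, 0.737 to 1.72). The first start of H2-DMa, shared with the Brd2 overlap, held 31 and 51 (0.796, 0.492 to 1.27), and the second, with 4 and 13, was too shallow for comparison. Of the 7 starts with at least 20 reads, 1 reached 1.5 and 4 were below 1, against 44.4% and 31.7% of 16333 such starts of all genes, whose median ratio was 1.38. All intervals of these 4 hold 1.

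**Figure D4:**
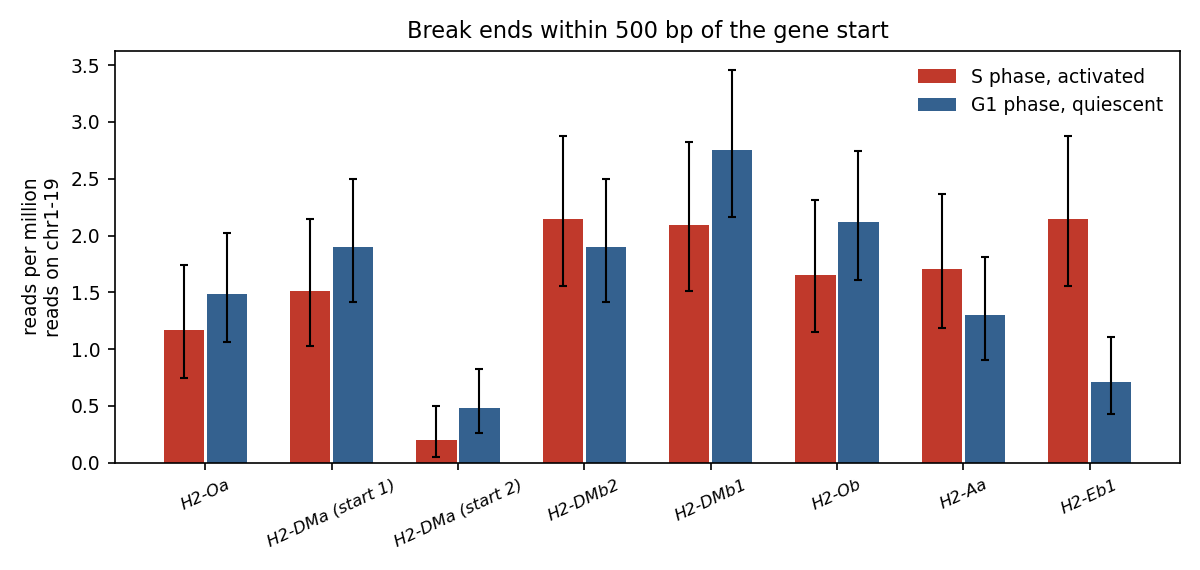
Reads within 500 bp of each start in the promoter table, per 1000000 reads on chromosomes 1 to 19, in the S-phase library (red) and the G1 library (blue), with 95% counting intervals. The start of H2-Eb1, with 44 S-phase reads on 15 positions and 19 G1-phase reads on 6 positions, has intervals by reads that do not overlap. No interval by positions was computed for starts.

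The span that holds the 8 genes of chromosome 17, from 34090379 to 34318674, differed little from its surroundings. It held 2678 S-phase reads and 2900 G1-phase reads (ratio 1.21, 1.15 to 1.27), against 1.14 (1.12 to 1.16) over 1 Mb on each side and 1.02 over the whole chromosome. By positions the span stood at 1.13 (1.03 to 1.24) and its surroundings at 1.11. The stretch from H2-Ab1 to H2-Eb1, with the DNA between the genes, stood at 1.53 (1.38 to 1.70). The stretch from H2-Oa to H2-DMb1 stood at 1.15 (1.05 to 1.25), and the 74.7 kb from there to H2-Ob, with Psmb9, Tap1, Psmb8 and Tap2, at 1.10 (0.986 to 1.22).

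**Figure D5:**
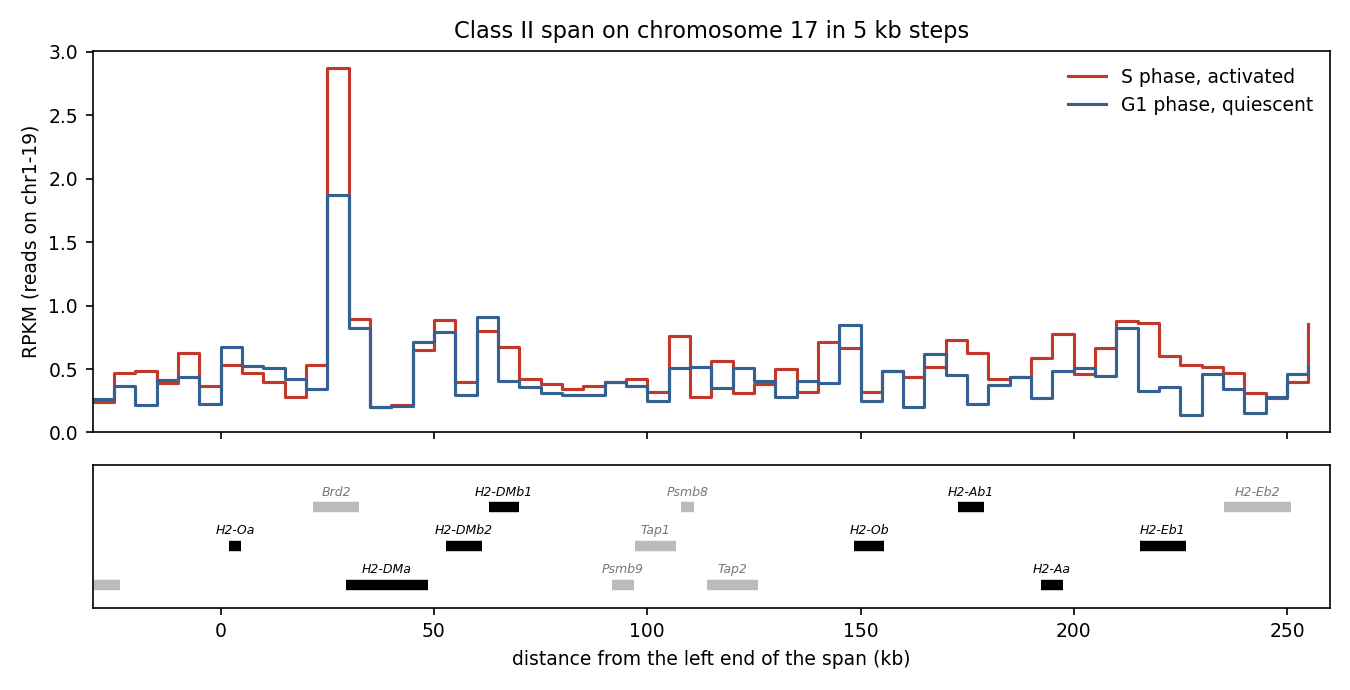
RPKM on the total of chromosomes 1 to 19 in steps of 5 kb over the class II span and 30 kb on each side, in the S-phase library (red) and the G1 library (blue), above the protein-coding genes (members in black, others in grey). The highest step lies in Brd2, at the left end of H2-DMa. The S-phase library lies above the G1 library over H2-Ab1, H2-Aa and H2-Eb1. Steps outside these genes go either way, some of them also with the S-phase library well above.

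Neighbours of the class II genes gave no ratio at 1.5 or above. Of 15 such genes 0 were at 1.5 or above and 1 at its inverse or below, against 15% and 8.89% of all genes, with a median log2 ratio of 0.23. The highest were Brd2 at 1.39 (1.21 to 1.59), the zinc transporter gene Slc39a7 at 1.39 (1.09 to 1.77) and H2-Eb2, a class II beta gene beside H2-Eb1, at 1.37 (1.09 to 1.71). The lowest were Ager, the receptor for advanced glycation end products, at 23 and 73 reads (0.412, 0.246 to 0.667), the retinoid X receptor gene Rxrb at 0.857 (0.666 to 1.10) and the peptide transporter gene Tap2 at 0.901 (0.714 to 1.13). H2-Ea, the alpha partner of H2-Eb1 and a transcribed pseudogene in the RefSeq table, held 57 and 82 reads, a ratio of 0.910 (0.637 to 1.29).

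Among 22 other genes of class II regulation and function, 1 was at 1.5 or above and 0 at its inverse or below, against 15% and 8.89% of all genes. Among genes with at least 200 reads the shares were 8.85% and 1.88%. Their intervals lay above 1 for 10 and below 1 for 3, against 28.8% and 13.5%, and the median log2 ratio was 0.16. Some of these genes are deep, where small departures already exclude 1, so the shares of all genes are not matched in depth. The lysosomal protease gene Ctsl led at 124 and 95 reads (1.71, 1.30 to 2.26). The RFX subunit genes Rfxap (1.39, 1.08 to 1.79) and Rfxank (1.38, 1.19 to 1.60) followed. The lowest were the costimulatory ligand gene Cd80 with 293 and 501 reads (0.765, 0.660 to 0.886), Marchf8, a ubiquitin ligase gene (0.859, 0.770 to 0.957), and Stat6, which carries the IL-4 signal (0.887, 0.731 to 1.07). Of 14 genes of class I presentation 1 reached 1.5 and 0 its inverse, against the same 15% and 8.89%, with a median log2 ratio of 0.11. Highest were the immunoproteasome subunit Psmb10 at 1.71 (1.22 to 2.39), Tap1 at 1.35 (1.07 to 1.71) and the chaperone Calr at 1.24 (1.05 to 1.45), and lowest Tap2, the class I heavy chain H2-K1 at 0.911 (0.693 to 1.19) and Psmb8 at 0.925 (0.681 to 1.25).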

How the data were processed

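Break ends were measured by END-seq in 1 S-phase and 1 G1-phase library. The authors deposited counts, as bedGraph tracks of 1 strand each (per the file headers), with whole numbers of read ends per base and no normalization. The submitters' processing notes name Bowtie 1.1.2, SAMtools 1.11, bedtools and mm10; settings and the handling of duplicate or multiply matching reads are not given here. Summing and intervals used Python 3.11.15 with scipy 1.17.1, pandas 2.3.3 and numpy 2.4.6, and plots matplotlib 3.10.9. Gene coordinates came from the RefSeq table of GRCm38.p6. Ratios carry conditional exact intervals of Poisson counts, and shares exact Clopper-Pearson intervals. Log2 ratios used a pseudocount of 1 scaled read. A count of 0 allows 0.146 reads per 1000000 in S phase and 0.112 in G1 phase (3 reads).

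The members and the lists were chosen with earlier results of these data known. All 10 members are named, and of the class I, pathway and neighbour lists 3 at the top and 3 at the bottom by ratio; of member bins, the highest in each library and those past the size rule. H2-Ea was named outside this rule, after its value was seen. Interval counting and calls were tested on simulated data with independent reads. The simulation leaves out stacks, so it does not show how well the intervals hold for stacked reads. Alternatives changed the scaling, stacks, flanks, strand, thresholds, bins, pseudocount and surroundings.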

Additional observations from a re-analysis of the deposited data

How the results depend on the processing

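H2-Ab1, H2-Aa and H2-Eb1 stayed above 1 under all 10 alternatives run for each: at 1.84 to 2.15 for H2-Ab1, 1.44 to 2.27 for H2-Aa and 1.20 to 3.33 for H2-Eb1. H2-Aa was under 1.5 with 5 kb flanks (1.44) and H2-Eb1 on the minus strand alone (1.20). Members at 1.5 or above numbered 2 with 5 kb flanks, 4 without flanks and 4 on the plus strand. They numbered 5 without the highest bin of each gene and 5 without the highest position (chosen after seeing the data), adding H2-DMb1 and Cd74 both times, and 1 at a threshold of 2. Members at the inverse or below numbered 1 without flanks (H2-Oa) and 1 on the minus strand (H2-Ob). For these counts no share of all genes under the same setting is given. Settings that leave fewer reads widen the scatter of every gene, so the counts cannot be set against a background. Scaling to the median gene shifts every log2 ratio by -0.11. The median log2 ratio of the members was 0.21 with that scaling, 0.40 on the plus strand, 0.58 without the highest bin and 0.50 without the highest position. H2-DMa ran from 0.889 (without the Brd2 overlap, chosen after seeing the data) to 1.39, Cd74 from 0.905 to 2.16 and Ciita from 0.821 to 1.02. Called bins moved with the rule. With 250 bp bins 4 of 17 were higher and 0 lower, against 18.7% and 55.9% of such bins of all genes. With 1 kb bins 9 and 5 of 40 were called (18.7% and 45.6%), at 3-fold 3 and 1 of 28 (12.2% and 48.7%), with a minimum of 10 reads 36 and 33 of 110 (27.1% and 45.9%), with a minimum of 40 reads 0 and 1 of 7 (26.3% and 9.27%), and with each position counted once 0 and 0 of 1 (13.6% and 3.28%). Plus-strand shares of the members moved within their counting intervals. The ratio of the span over that of its surroundings was 1.06, and it was 1.04 with 500 kb and 1.05 with 2 Mb on each side. Depth limits bins and starts. The start of H2-Eb1 rests on 15 S-phase and 6 G1-phase positions. By reads, the intervals of all member starts but this one held 1. Those of the called 500 bp bins, counted by reads, excluded 1 except in H2-DMa (0.224 to 1.02), but these bins rest on few positions. No paired analysis was possible because each group has 1 library and no result comes from a test.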
